A study of Caenorhabditis elegans with 2 samples.

Results

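The autophagy and lysosome genes described here are 89 of the 19973 nuclear protein-coding genes of the nematode Caenorhabditis elegans. They were chosen by name on the assembly WBcel235, which the files call ce11: every gene whose symbol begins with lgg-, atg-, epg-, vha-, cpr-, asp-, lipl- or glo-, together with bec-1, unc-51, vps-34, sqst-1, cpl-1, lmp-1, lmp-2, ctns-1 and cup-5. By role they are 27 genes of the autophagy machinery, 20 subunit genes of the vacuolar proton pump (V-ATPase) and 42 other lysosomal genes. These roles follow the gene names, and whether each product works in the lysosome was not tested. No measured value entered the choice, although it was made with earlier results of these data known.

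Chromatin immunoprecipitation with sequencing (ChIP-seq) was used to map where MXL-1, a basic helix-loop-helix leucine zipper protein, sits on the genome. The animals were whole hermaphrodite young adults of the strain OP537, with the genotype unc-119(tm4063) III; wgIs537, grown for 67 hours from L1 larvae that had been synchronised by bleaching and starvation. They stably expressed MXL-1 with GFP and FLAG fused to its C-terminus, and an antibody against GFP was used for the precipitation. The 2 biological replicates formed 1 group and shared the transgene and the unc-119 allele, so no conditions could be compared. The promoter that drives the transgene is not given in the sources used here, and chromatin of whole animals does not show in which tissue a peak arose.

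Per the deposited file descriptions there were 4 peak lists on ce11. Replicate 1 had 20313 peaks, replicate 2 had 21882, the list called on both together (the pooled list) had 14200 and the list thresholded on the irreproducible discovery rate, the authors' measure of how well replicates rank a peak alike, had 557. The pooled and replicate lists are described as peaks and background, so not every weak entry is a binding site. Each peak carries a signal given by the authors without a stated scale, which serves below for ranking and description inside 1 list at a time. The depth is unknown, as read totals were not analysed here.

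Autophagy is the process by which a cell encloses cytoplasm in a double membrane, the autophagosome, and delivers it to the lysosome. Atg8 proteins are attached to the lipid of that membrane, the V-ATPase acidifies the lysosome, and cathepsins and lipases digest what arrives there. MXL-1 is a Max-like protein that pairs with MDL-1, and dimers of this family bind the E-box CACGTG. HLH-30, the worm homologue of TFEB, is another basic helix-loop-helix factor that binds E-boxes and is known for activating autophagy and lysosome genes.

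The sequences at the summits on which the results turn are shown first, because the E-box is the sequence the MXL-1 family is known to bind. All were read from the RefSeq assembly WBcel235 and run 5′ to 3′ on the strand of the gene named. The windows for lgg-1 (chrII:6347784-6347984, minus strand) and lgg-2 (chrIV:10936115-10936315, minus strand) hold 201 bases centred on the pooled summit. Their capitals mark the E-box variant CACATG or its reverse complement CATGTG, and neither window holds CACGTG. The shorter windows for epg-4 (chrIII:7181938-7182038, plus strand) and vha-2 (chrIII:9782000-9782100, plus strand) hold neither form and have no capitals, and the CATGTG near the epg-4 summit lies beyond the stretch shown.
lgg-1: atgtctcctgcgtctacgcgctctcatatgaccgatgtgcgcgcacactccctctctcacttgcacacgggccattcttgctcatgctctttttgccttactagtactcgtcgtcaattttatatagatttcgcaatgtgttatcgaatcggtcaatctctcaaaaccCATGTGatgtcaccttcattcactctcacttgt
lgg-2: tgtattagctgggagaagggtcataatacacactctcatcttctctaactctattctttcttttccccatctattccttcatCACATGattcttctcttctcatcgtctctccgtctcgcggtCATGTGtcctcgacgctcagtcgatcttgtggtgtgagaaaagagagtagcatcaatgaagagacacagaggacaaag
epg-4: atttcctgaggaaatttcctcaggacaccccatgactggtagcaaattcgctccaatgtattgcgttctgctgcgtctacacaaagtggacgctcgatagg
vha-2: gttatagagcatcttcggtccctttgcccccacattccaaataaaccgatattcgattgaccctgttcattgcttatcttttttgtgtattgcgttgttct

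The window in the promoter of cpr-9 (chrV:12002096-12002296, plus strand, 201 bases) is shown because its summit falls inside another gene. The capitals mark the tRNA gene F57F5.t1 (WBGene00014406), an isoleucine tRNA gene at chrV:12002176-12002260 on the plus strand.
cpr-9: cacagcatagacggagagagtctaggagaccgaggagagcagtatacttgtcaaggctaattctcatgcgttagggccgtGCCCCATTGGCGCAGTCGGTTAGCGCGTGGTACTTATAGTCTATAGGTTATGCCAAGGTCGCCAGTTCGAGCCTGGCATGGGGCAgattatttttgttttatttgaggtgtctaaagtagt

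The last set shows the 3 places where CACGTG lay within 100 bp of a pooled promoter summit of these genes. The 30-base stretches are at epg-7 (chrX:7334560-7334589, plus strand), atg-3 (chrIV:1009758-1009787, plus strand) and lipl-5 (chrV:385689-385718, plus strand), with the E-box in capitals.
epg-7: gcctctgtacgtCACGTGatttgcagccgc
atg-3: tgcacagttgctCACGTGagacactgtcag
lipl-5: acgaaattcaaaCACGTGgtgtgcatattt

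A promoter window covered the 1000 bp before and the 200 bp after any protein-coding transcript start of a gene. In the thresholded list, 3 of the 89 genes had a summit there (3.37%, exact Clopper-Pearson 95% interval 0.701 to 9.54), against 212 of all nuclear protein-coding genes (1.06%). They were lgg-1 and lgg-2, the Atg8 genes of the worm, and cpr-9, which encodes a cathepsin B-like protease. Among as many of the strongest peaks of replicate 1 alone the count was 1, and of replicate 2 alone 4. In the pooled list, 29 of the 89 genes had a promoter summit (32.6%, 23.0 to 43.3), against 4585 of all genes (23.0%). Each interval covers the counting of genes only.

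A replicate was said to match a pooled summit where it had a summit within 100 bp. A replicate without a match can still have a summit elsewhere in the same promoter window. This was so at lipl-5, with 19.9 in replicate 1 and 32.4 in replicate 2. In replicate 2 alone it was so at cpr-2, with 24.2, and at epg-6, with 21.4. With a match in both replicates required for the same summit, 18 of the 89 genes remained (20.2%, 12.4 to 30.1), against 8.60% of all genes. Of the 40 pooled promoter summits of the autophagy and lysosome genes, 18 were matched in both replicates (45.0%) and 5 in neither (12.5%). Over all 4768 pooled promoter summits, 32.4% were matched in both and 8.93% in neither. The replicates taken alone placed a promoter summit at 42 of the 89 genes in replicate 1 (47.2%, against 29.8% of all genes) and at 36 in replicate 2 (40.4%, against 31.1% of all genes).

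The strongest pooled promoter signal of a gene had a median of 36.4 over the 29 genes that had one, with a range of 26.1 to 113.7, and of 33.2 over the 4585 genes of the genome that had one. By rank in the pooled list the medians were 4250 for the autophagy and lysosome genes and 6055 for all genes, rank 1 being the strongest. The lowest signal in the thresholded list was 67.7.

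**Figure D1:**
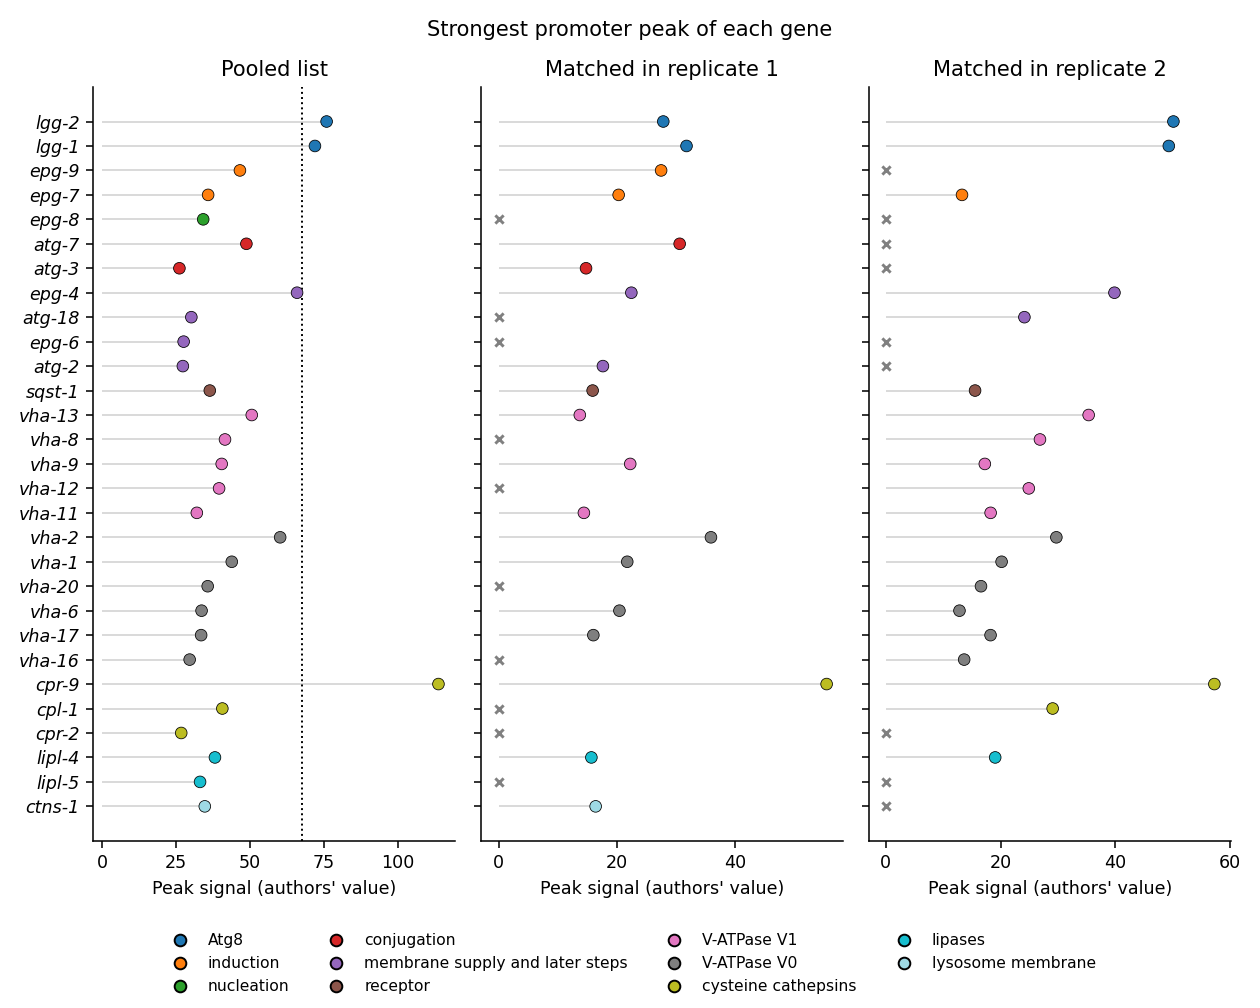
Signal of the strongest pooled promoter peak of each of the 29 genes that had one (left), with the signal of the matched peak in replicate 1 (middle) and replicate 2 (right), by role. Crosses at 0 mark a replicate with no summit within 100 bp, and the dotted line marks the lowest signal in the thresholded list, 67.7. Signals are the authors' values, and each panel has its own axis. cpr-9, lgg-2 and lgg-1 lie to the right of the line, and epg-4, at 65.9, just to its left.

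The autophagy machinery had both Atg8 genes at its top. LGG-1 is the GABARAP-type and LGG-2 the LC3-type Atg8 protein, the ubiquitin-like proteins that mark the growing autophagosome. The lgg-2 peak (WBGene00002981, chrIV:10935995-10936434) had a signal of 75.9 in the pooled list, 27.9 in replicate 1 and 50.2 in replicate 2. Its ranks were 423 in the pooled list, 1324 in replicate 1 and 254 in replicate 2, so that it stood higher in replicate 2 than in replicate 1. The lgg-1 peak (WBGene00002980, chrII:6347664-6348103) had a signal of 72.0 in the pooled list, 31.8 in replicate 1 and 49.4 in replicate 2. It ranked 478 in the pooled list, 816 in replicate 1 and 270 in replicate 2, and thus higher in replicate 2 as well.

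Both peaks lay outside protein-coding genes, with the summits 312 bp upstream of the start of lgg-2 and 165 bp upstream of that of lgg-1, and neither lay in the window of any other gene. Each promoter also had a weaker pooled summit farther upstream that was matched in 1 replicate. At lgg-1 that summit was 364 bp upstream, with a signal of 40.3 in the pooled list and 25.96 in replicate 1 and no match in replicate 2. At lgg-2 it was 514 bp upstream, with a signal of 25.8 in the pooled list, no match in replicate 1 and 28.9 in replicate 2.

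Among the 4 genes of the initiating kinase complex, 2 had a pooled promoter summit. EPG-7 is an FIP200-like scaffold protein, and its gene had a peak of signal 35.9 in the pooled list, 20.3 in replicate 1 and 13.3 in replicate 2, with the summit 203 bp upstream and an E-box 63 bp from it. epg-9, the homologue of ATG101, had 4 summits spread over its several starts. The strongest, in an intron, had a signal of 46.6 in the pooled list and 27.5 in replicate 1 with no match in replicate 2. The summit of epg-9 matched in both replicates had 42.3 in the pooled list, 20.4 in replicate 1 and 21.3 in replicate 2. When the annotated gene start alone was used, the strongest epg-9 signal was 28.6. unc-51, the kinase itself, and atg-13, its regulatory subunit, had no pooled promoter summit.

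The class III PI3-kinase complex makes the lipid signal on the forming membrane. Of its 3 genes, 1 had a pooled promoter summit (33.3%, 0.840 to 90.6, against 23.0% of all genes). This was epg-8, the homologue of ATG14. The stronger epg-8 summit, of signal 34.2 in an intron, had no match in either replicate. The other, 100 bp upstream, had 32.7 in the pooled list, 18.8 in replicate 1 and 13.7 in replicate 2. vps-34, the kinase, had no summit in its promoter window or gene body in any list.

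Of the 9 genes of Atg8 processing and conjugation, 2 had a pooled promoter summit (22.2%, 2.81 to 60.01, against 23.0% of all genes). atg-7, the E1-like enzyme of both conjugation systems, had 3 of them. The strongest, in a coding exon 41 bp downstream of a start, had a signal of 48.8 in the pooled list and 30.6 in replicate 1, rank 927, with no match in replicate 2. The next, 209 bp upstream and in the 3′ UTR of a transcript there, was matched in both, with 40.7 in the pooled list, 26.9 in replicate 1 and 15.99 in replicate 2. atg-3, the E2-like enzyme of Atg8 lipidation, had a signal of 26.1 in the pooled list and 14.8 in replicate 1 with no match in replicate 2, and its summit was 28 bp from the start of Y55F3AM.9.

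In the group for membrane supply and later steps, 4 of 8 genes had a pooled promoter summit and epg-4 stood above the others. EPG-4 is the homologue of the endoplasmic reticulum protein EI24. Its peak (chrIII:7181768-7182207) had a signal of 65.9 in the pooled list, 22.4 in replicate 1 and 39.9 in replicate 2, with ranks of 601, 3171 and 459 in those lists. It thus lay just under the lowest thresholded signal, with the summit 179 bp upstream of the start and outside protein-coding genes. The others were atg-18, a WIPI homologue, with 30.2 in the pooled list and 24.2 in replicate 2, epg-6, also a WIPI homologue, with 27.6 and no match, and atg-2, a lipid transfer protein, with 27.3 in the pooled list and 17.6 in replicate 1. sqst-1, the homologue of the autophagy receptor SQSTM1, had 36.4 in the pooled list, 15.9 in replicate 1 and 15.6 in replicate 2. That summit was in a coding exon, 74 bp downstream of the nearest of the 2 sqst-1 starts. With the annotated gene start alone, sqst-1 had no pooled promoter summit.

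The 3 divisions of the 89 genes had different counts of promoter summits, given here as a description with no test of the differences. Of the 20 subunit genes, 11 had one (55.0%, 31.5 to 76.9), and 7 had one matched in both replicates (35.0%, 15.4 to 59.2). For the 27 autophagy machinery genes the counts were 12 (44.4%, 25.5 to 64.7) and 8 (29.6%, 13.8 to 50.2). For the 42 other lysosomal genes they were 6 (14.3%, 5.43 to 28.5) and 3 (7.14%, 1.498 to 19.5). Over all genes these shares were 23.0% and 8.60%.

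**Figure D2:**
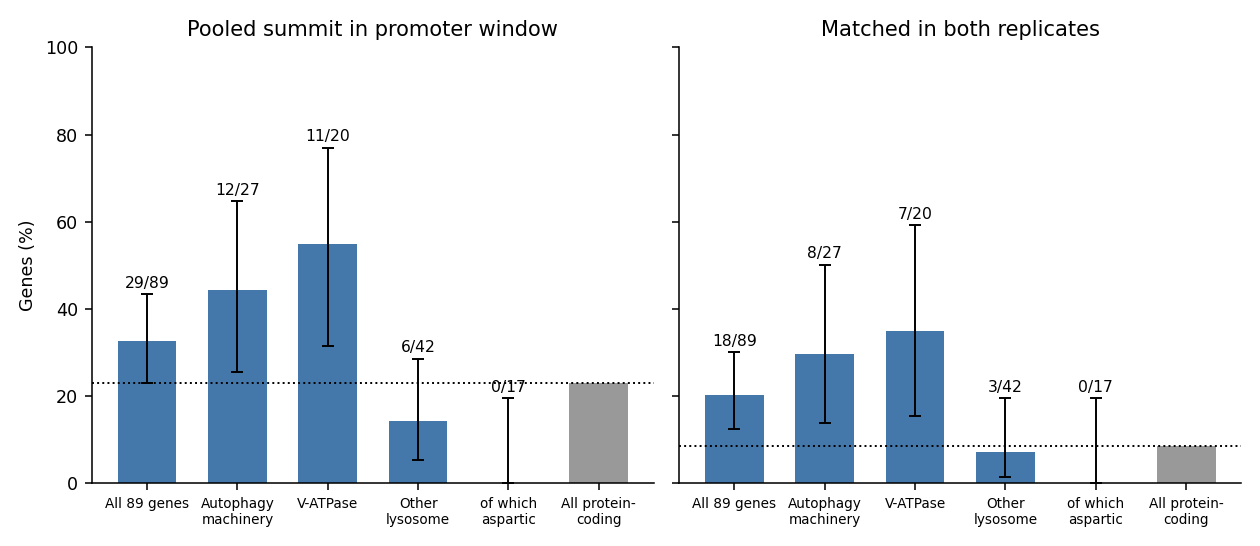
Share of genes with a pooled summit in the promoter window (left) and with one matched in both replicates (right), for the 89 genes, their 3 divisions, the 17 aspartic protease genes within the last of them, and all nuclear protein-coding genes (grey bar and dotted line). Error bars are exact 95% intervals that cover the counting of genes only. The V-ATPase bar stands at 55.0% on the left and 35.0% on the right, against 23.0% and 8.60% for all genes, and no aspartic protease gene is counted in either panel.

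The strongest V-ATPase promoter peak belonged to vha-2, a proteolipid subunit of the membrane sector V0. That peak (chrIII:9781830-9782269) had a signal of 60.2 in the pooled list, 35.9 in replicate 1 and 29.7 in replicate 2, with ranks of 764, 565 and 1222. Unlike the Atg8 peaks it ranked higher in replicate 1. The summit was 114 bp upstream of vha-2 and also in the promoter window of R10E11.6. The neighbouring vha-1, another proteolipid gene, had its own peak (chrIII:9780715-9781154) with 43.8 in the pooled list, 21.8 in replicate 1 and 20.2 in replicate 2, in a window shared with sqv-3.

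The other V0 genes with a pooled promoter summit were vha-20, vha-6, vha-17 and vha-16, from 35.7 down to 29.6. vha-20, an accessory subunit, had 35.7 in the pooled list and 16.6 in replicate 2 with no match in replicate 1. vha-6, the a subunit of the intestine, had 33.6 in the pooled list, 20.4 in replicate 1 and 12.8 in replicate 2. Of the 11 V0 genes, 6 thus had a pooled promoter summit (54.5%, 23.4 to 83.3, against 23.0% of all genes). A summit matched in both replicates was present at 4 (36.4%, 10.9 to 69.2, against 8.60%).

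In the catalytic sector V1, 5 of 9 genes had a pooled promoter summit (55.6%, 21.2 to 86.3, against 23.0% of all genes). A summit matched in both replicates was present at 3 (33.3%, 7.49 to 70.1, against 8.60%). vha-13, the A subunit, had a signal of 50.6 in the pooled list, 13.7 in replicate 1 and 35.4 in replicate 2. The replicates ranked this peak far apart, at 16851 in replicate 1 and 668 in replicate 2, and the summit was 785 bp upstream in the 3′ UTR of a neighbouring transcript. vha-8, the E subunit, had 41.6 in the pooled list and 26.9 in replicate 2 with no match in replicate 1, and its summit was 75 bp from the start of C17H12.2 and 511 bp from that of vha-8. vha-9, the F subunit, had 40.4 in the pooled list, 22.3 in replicate 1 and 17.3 in replicate 2. vha-12, the B subunit, had 39.6 in the pooled list and 24.9 in replicate 2 with no match in replicate 1.

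Of the genes for digestive enzymes, cpr-9 had the strongest promoter peak of all 89 genes. That peak (chrV:12001976-12002415) had a signal of 113.7 in the pooled list, 55.5 in replicate 1 and 57.3 in replicate 2. Its ranks were 145, 164 and 163, so that both replicates placed it near the top. Its summit was inside the isoleucine tRNA gene shown above, 857 bp upstream of cpr-9 and 399 bp from the start of gcy-33, so that cpr-9 was not the nearest gene. It was the 1 summit of 40 in these promoters that had a small RNA gene (tRNA, snoRNA, snRNA or rRNA) 250 bp away or less (2.5%, against 4.43% of all 4768 promoter summits).

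cpl-1, which encodes cathepsin L, had a promoter summit of signal 40.7 in the pooled list and 29.1 in replicate 2 with no match in replicate 1. That summit was in an intron, 440 bp downstream of the nearest start and upstream of another. Of the 9 cysteine protease genes 3 had a pooled promoter summit (33.3%, 7.49 to 70.1, against 23.0% of all genes). The last of them was cpr-2 at 26.8, matched in neither replicate. None of the 17 aspartic protease genes had a pooled promoter summit (exact 95% interval up to 19.5%, against 23.0% of all genes). In replicate 1, however, 6 of them had a promoter summit (35.3%, 14.2 to 61.7, against 29.8% of all genes). In replicate 2 there were 3 (17.6%, 3.80 to 43.4, against 31.1%).

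Of the 8 lipase genes, which act on lipid delivered to the lysosome, 2 had a pooled promoter summit. lipl-4 had 38.2 in the pooled list, 15.7 in replicate 1 and 19.1 in replicate 2, and lipl-5 had 33.12 with no match in either replicate. ctns-1, the homologue of the cystine transporter cystinosin, was the 1 of 4 lysosome membrane genes with a pooled promoter summit, of signal 34.7 in the pooled list and 16.4 in replicate 1 with no match in replicate 2. A second ctns-1 summit, 892 bp upstream and also in the window of cdc-48.2, was matched in both, with 33.06 in the pooled list, 15.4 in replicate 1 and 17.3 in replicate 2. Gut granules are the lysosome-related organelles of the worm intestine. None of their 4 genes had a pooled promoter summit (up to 60.2%, against 23.0% of all genes).

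**Figure D3:**
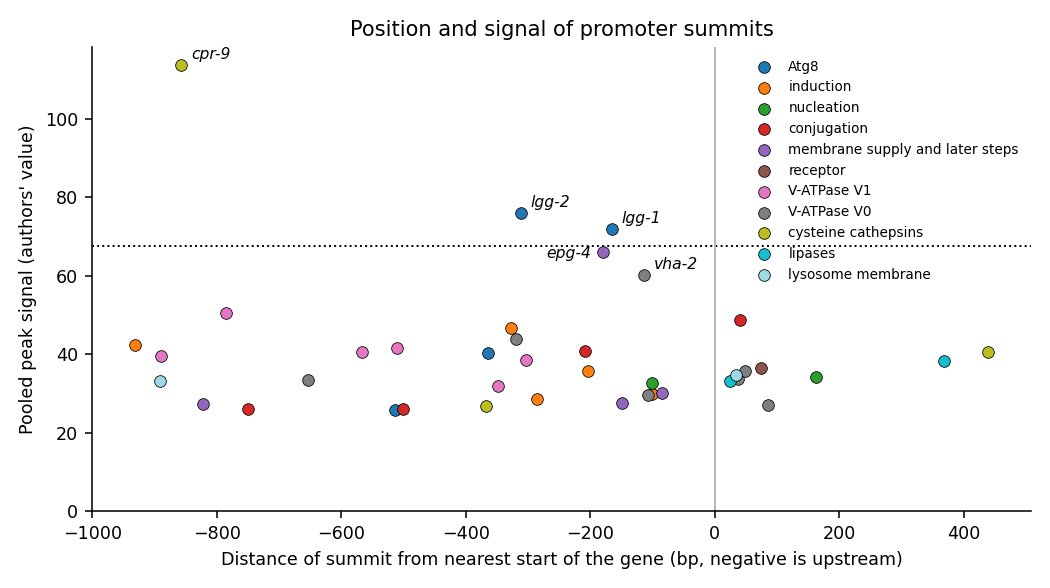
Distance of each of the 40 pooled promoter summits of these genes from the nearest start of the gene, in bp, against its pooled signal (the authors' value). Colours give the role and the dotted line marks the lowest thresholded signal, 67.7. Summits of lgg-1, lgg-2, epg-4 and vha-2 lie between 114 and 312 bp upstream and that of cpr-9 lies 857 bp upstream. Distances beyond 200 bp downstream belong to genes with more than 1 start.

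The promoter summits of the autophagy and lysosome genes had a median position 247.5 bp upstream of the nearest start, and those of all genes 287 bp upstream. By annotation, 21 of the 40 lay outside protein-coding genes (52.5%, against 45.8% of all promoter summits), 9 in coding exons (22.5%, against 21.6%), 7 in introns (17.5%, against 22.2%) and 3 in 3′ UTRs (7.5%, against 5.22%). In 8 of the 40 the summit lay in the window of more than 1 gene (20%, against 14.6%), so that those peaks cannot be assigned to 1 of the genes.

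How the replicates ranked these peaks was read over the matched summits. Over the 18 promoter summits of the autophagy and lysosome genes matched in both, Spearman's rho between replicates was 0.42, and over all 1545 such summits it was 0.41. The points share 2 libraries and are a description, not replicates. Among the 557 strongest peaks of each replicate, the genes with a promoter summit were cpr-9 in replicate 1, and cpr-9, lgg-1, lgg-2 and epg-4 in replicate 2. In those lists 233 and 219 of all genes had one (1.17% and 1.10%).

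**Figure D4:**
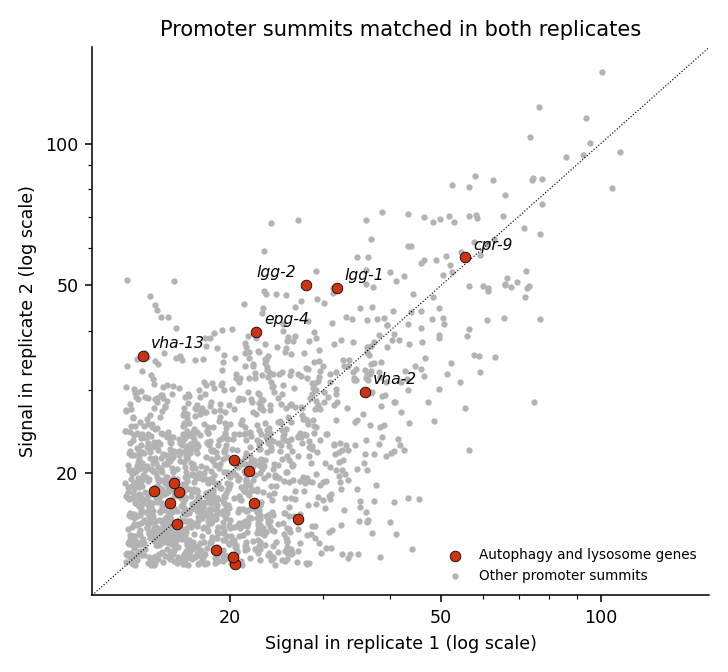
Signal in replicate 1 against signal in replicate 2, both on log scales, for the pooled promoter summits matched in both replicates. Red points are the 18 summits of autophagy and lysosome genes, grey points the other matched promoter summits, and the dotted line marks equal values. lgg-1, lgg-2, epg-4 and vha-13 lie above the line, cpr-9 just above it and vha-2 below it.

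The E-box CACGTG, which reads the same on both strands, was absent from the promoter windows of lgg-1 and lgg-2. It occurred in the promoter windows of 23 of the 89 genes (25.8%, 17.1 to 36.2), against 21.4% of all genes. Of these 23 genes, 6 had a pooled promoter summit (26.1%, 10.2 to 48.4), and of the 66 without CACGTG 23 had one (34.8%, 23.5 to 47.6). Over all genes the shares were 28.3% with and 21.5% without the E-box. The intervals for the 89 genes overlap, so no order between them is read from these counts.

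CACGTG lay within 100 bp of a pooled promoter summit in 3 of the 89 genes (3.37%, 0.701 to 9.54), against 1.33% of all genes. These were epg-7, atg-3 and lipl-5, with the E-box 63, 10 and 68 bp from the summit. Among them epg-7 alone was matched in both replicates. With as many of the strongest peaks of a single replicate as the pooled list holds, the count was 6 in replicate 1 and 0 in replicate 2. The matching shares of all genes are not given here, so these counts show only how far the replicates differed. Counted by site, 3 of the 29 CACGTG sites in the promoters of these genes lay within 100 bp of a pooled summit (10.3%, 2.19 to 27.4), against 257 of 4855 sites over all genes (5.29%).

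The E-box variant CACATG was counted with its reverse complement CATGTG, and a site of this form cannot coincide with one of CACGTG. It was within 100 bp of 6 of the 40 promoter summits of these genes (15%, 5.71 to 29.8), against 368 of all 4768 (7.72%). The 6 included the main summits of lgg-2, with 2 sites, and of lgg-1 and epg-4, with 1 site each. In the whole promoter windows it was about as frequent in both, at 37.1% of the 89 genes and 37.05% of all genes. The 6-mers CGCGCA and CACTGC, also counted on both strands, were at 3 and 2 of the 40 summits (7.5% and 5.0%), against 6.63% and 6.59% of all promoter summits. These 3 sequences were taken up because earlier results of these data had shown them to be frequent at peaks, and a match describes the letters alone.

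Gene bodies of the 89 genes held no thresholded summit (0 of 89, which allows up to 4.06%), against 1.23% of all genes. Among the 557 strongest peaks of each replicate alone 1 gene had one, unc-51 in replicate 1 and vha-2 in replicate 2. For those lists the shares of all genes are not given here, so no departure from all genes is read. In the pooled list 33 of the 89 had a summit between gene start and end (37.1%, 27.1 to 47.97), against 30.9% of all genes, and 13 had one matched in both replicates (14.6%, 8.01 to 23.7), against 11.7%. Their gene length had a median of 2345 bp and that of all genes 2027 bp. Of the 54 gene body summits, 28 were in coding exons (51.9%, against 39.5% of all gene body summits) and 20 in introns (37.0%, against 48.7%).

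The highest gene body signals were at vha-2 and lipl-4, both near the start of another gene. At vha-2 a peak of signal 66.1 in the pooled list, 25.5 in replicate 1 and 36.8 in replicate 2 lay in the 5′ UTR of R10E11.6. At lipl-4 a peak of 56.5 in the pooled list, 29.3 in replicate 1 and 27.9 in replicate 2 lay in the 3′ UTR at the serine tRNA gene K04A8.t2 (WBGene00023095), and its summit was also in the promoter window of twk-10. Peaks nearer to the genes' own starts were an intron peak of cpl-1, with 48.6 in the pooled list, 27.9 in replicate 1 and 21.2 in replicate 2, and a coding exon peak of asp-1, an aspartic protease gene, with 45.5, 25.3 and 19.1 in those lists. In the unc-51 gene an intron peak of 43.0 in the pooled list was at rank 446 in replicate 1, with 38.6, and had no match in replicate 2.

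Over promoter window and gene body together, 43 of the 89 genes had a pooled summit (48.3%, against 41.4% of all genes). In any of the 4 lists, 18 had none at all (20.2%, against 30.01%). Besides vps-34 these included lgg-3, the ATG12 homologue, atg-10, its E2-like enzyme, atg-13, the V-ATPase genes vha-4, vha-5 and vha-10, lmp-2, and 6 aspartic protease genes.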

How the data were processed

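ChIP-seq peak lists of 2 replicates were analysed. Column 7, the signal, is the authors' value per peak in the deposited narrowPeak lists. Per the deposited file descriptions the lists came from alignments with a control. The ce10 lists were not used. The aligner and caller were not given in the sources used here. Gene models were those of Ensembl release 115 and bases those of RefSeq, on WBcel235, and no peak passed a chromosome end. Summits were assigned to promoter windows of all protein-coding transcript starts and to gene bodies. A summit of a replicate within 100 bp counted as a match. Shares carry exact Clopper-Pearson 95% intervals (Python 3.11.15, scipy 1.17.1, pandas 2.3.3, numpy 2.4.6, matplotlib 3.10.9), and the assignment was tested on simulated data. No test was run, since there is 1 group. Depth is unknown. p-values of the lists were not used.

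The members and lists were chosen with earlier results of these data known. Genes named with values were those with a thresholded summit, the 20 with the highest pooled promoter signal, the 2 highest of each role group, the Atg8 genes and those with CACGTG at a pooled promoter summit matched in both replicates. Other genes named were chosen after their values were seen. epg-9 was counted with the initiating kinase complex, not with membrane supply as first listed. Alternatives varied the windows, starts, match distance, list size, E-box distance and replicates.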

Additional observations from a re-analysis of the deposited data

How the results depend on the processing

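No paired analysis was possible because both replicates belong to 1 group. Leaving out a replicate meant taking from the other as many of its strongest peaks as the pooled or thresholded list holds. Genes with a promoter summit in the thresholded list (3) then numbered 1 to 4, those with a gene body summit there (0) numbered 1 in either replicate, vha-2 in replicate 2 and unc-51 in replicate 1. Genes with CACGTG at a pooled promoter summit (3) numbered 0 to 6, and the median signal (36.4) was 19.4 to 21.5 in the replicates' own signal values, which are not comparable with pooled ones. Among the 278 strongest thresholded peaks, 1 gene had a promoter summit, cpr-9. CACGTG counts were 7 with a window of 2000 bp upstream to 500 bp downstream and 1 within 50 bp of the summit. Shares of all genes at these settings are not given here, so the counts show only how far the settings moved them. The cause of these shifts was not tested. Among the named genes that kept a pooled promoter summit, other windows or starts changed the strongest pooled signal at epg-9 and vha-9 only. At epg-9 it was 28.6 with the annotated gene start alone. At vha-9 it was 38.4, against 40.4, with a window of 500 bp upstream to 200 bp downstream. With a window of 500 bp upstream to 200 bp downstream, cpr-9, cpl-1, vha-8, vha-12, vha-13 and atg-3 had no pooled promoter summit. With the annotated gene start alone, cpl-1, lipl-4 and sqst-1 had none. The count of 29 genes ranged over 21 to 39 and that of 18 matched genes over 12 to 21 across the other windows, distances and list sizes. The matching shares of all genes are not given here, so no departure from all genes is read from these ranges. In the thresholded list the share of all genes also changed with the window. It was 0.691% with 500 bp upstream to 200 bp downstream and 1.90% with 2000 bp upstream to 500 bp downstream. Without peaks at small RNA genes, an alternative chosen after seeing the data, the thresholded count was 2, lgg-1 and lgg-2. With depth unknown, a gene without a summit is not shown to lack binding.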

Other observations

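A further list of 43 genes of the same pathways, chosen by name outside the 89 and with earlier results of these data known, covered nutrient signalling, lysosomal transport and fusion. None had a thresholded summit in the promoter window (up to 8.22%, against 1.06% of all genes). A pooled promoter summit was present at 17 (39.5%, 24.98 to 55.6, against 23.0% of all genes) and was matched in both replicates at 8 (18.6%, against 8.60%). The strongest matched in both replicates were at clh-6, a chloride channel gene, with 57.8 in the pooled list, 23.7 in replicate 1 and 32.8 in replicate 2, and at rab-7, the GTPase of late endosomes, with 57.8, 44.1 and 13.8. The rab-7 summit, 760 bp upstream, was the 1 of these with CACGTG within 100 bp. snx-1, a sorting nexin gene, had 57.4 in the pooled list, 34.5 in replicate 1 and 25.7 in replicate 2, and spin-4, a spinster-type transporter gene, had 52.6, 25.6 and 24.8.

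hlh-30, the worm homologue of TFEB, had 4 pooled promoter summits spread over its several starts, with signals of 31.4, 28.2, 26.5 and 26.0. None was matched in both replicates, as 3 were found in replicate 1 and 1 in replicate 2. let-363, the TOR kinase gene, had a signal of 28.3 in the pooled list and 20.6 in replicate 1 with no match in replicate 2.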
